A study of Mus musculus with 6 samples.

Results

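The genes described here are 10 members of the bone morphogenetic protein (BMP) pathway: 4 ligands (Gdf10, Bmp2, Bmp4 and Bmp6), 4 genes read as outputs of BMP signalling (Id1, Id2, Id3 and Smad6) and 2 antagonists (Grem1 and Bambi). They were chosen by symbol, with earlier results of these data known, from probe sets annotated with a single gene symbol. All 10 were found among 19938 named genes, each with 1 probe set, and all 10 passed the filter on dim genes that left 14953 genes to test. The RNA came from fibro/adipogenic progenitors (FAPs), muscle-resident stromal cells able to form fat or scar tissue, of wild-type male mice of strain C57/Bl6 aged 8 to 12 weeks. Every mouse, controls included, had a glycerol injury of the tibialis anterior (30 µL at 50% by volume), received a vivo-morpholino (VMO, an antisense oligomer made to enter cells in the animal) 3 days later, and gave cells 2 days after that. The 3 groups received pA-VMOs (against polyadenylation sites), 5'ss-VMO (against a 5' splice site) or Control VMO. The study concerns an intronic polyadenylation event in the transcript of Pdgfra, the receptor that marks FAPs. Groups had 2 arrays each; since every array was a pool of cells from 4 mice, differences between single mice were not measured.

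BMP ligands are secreted dimers that bring type I and type II receptor kinases together on the cell surface. The type I receptor then phosphorylates Smad1, Smad5 or Smad9, which join Smad4 and act in the nucleus on genes such as Id1, Id2, Id3 and Smad6. In muscle stroma the pathway is known for its part in adipogenic and osteogenic fate, and mesenchymal progenitors of mouse muscle are a known source of Gdf10, also called Bmp3b.

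None of the 10 members passed the test in any of the 3 comparisons. Gdf10 was lower with both reagents than with Control VMO by the widest margins of the 10 members, -0.37 (pA-VMO) and -0.40 (5'ss-VMO) on the log2 scale, and Bmp4 lay lower with both by smaller margins. Bmp2 and Id3 lay lower with pA-VMO than in either other group. Id1, Id2, Bmp6 and Grem1 differed between any pair of groups by at most 0.12. All values are log2 levels after RMA, a normalization that makes the arrays alike, and all differences are differences of log2 values; the test was limma, two-sided, with Benjamini-Hochberg adjustment over the 14953 genes and a threshold of 0.05.

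The sequences upstream of 6 of these genes are shown for context: Gdf10 and Bmp4, the 2 ligands that lay lower with both reagents, the output genes Id2, Id3 and Smad6, and the antagonist Grem1, whose window with that of Id2 holds the word searched. No expression result rests on them. Each line gives the 250 bases before the annotated gene start, 5′ to 3′ on the gene's own strand, from RefSeq (GRCm38.p6). Capitals mark GGCGCC, a GC-rich word bound by BMP-activated Smads, which reads the same on both strands.
Gdf10, chr14:33923337-33923586, plus strand: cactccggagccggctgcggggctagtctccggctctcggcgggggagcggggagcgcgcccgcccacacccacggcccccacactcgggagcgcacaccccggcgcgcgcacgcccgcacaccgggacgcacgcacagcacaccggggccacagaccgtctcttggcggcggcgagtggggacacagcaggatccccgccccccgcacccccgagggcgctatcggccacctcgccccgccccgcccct
Bmp4, chr14:46390670-46390919, minus strand: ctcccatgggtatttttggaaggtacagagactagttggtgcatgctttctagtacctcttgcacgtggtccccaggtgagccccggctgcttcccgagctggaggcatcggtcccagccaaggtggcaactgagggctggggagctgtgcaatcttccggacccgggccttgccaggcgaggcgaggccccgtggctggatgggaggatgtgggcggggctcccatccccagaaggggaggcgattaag
Id2, chr12:25096093-25096342, minus strand: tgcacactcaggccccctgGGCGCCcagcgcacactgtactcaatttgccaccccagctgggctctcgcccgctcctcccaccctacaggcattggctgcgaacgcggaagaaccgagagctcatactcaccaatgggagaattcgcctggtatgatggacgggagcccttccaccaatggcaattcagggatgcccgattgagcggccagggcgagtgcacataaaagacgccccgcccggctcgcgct
Id3, chr4:136143572-136143821, plus strand: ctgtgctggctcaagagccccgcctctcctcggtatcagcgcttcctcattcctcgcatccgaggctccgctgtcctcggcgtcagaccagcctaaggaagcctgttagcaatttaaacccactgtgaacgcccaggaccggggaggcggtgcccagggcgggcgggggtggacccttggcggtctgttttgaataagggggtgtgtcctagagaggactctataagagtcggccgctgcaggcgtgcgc
Smad6, chr9:64022060-64022309, minus strand: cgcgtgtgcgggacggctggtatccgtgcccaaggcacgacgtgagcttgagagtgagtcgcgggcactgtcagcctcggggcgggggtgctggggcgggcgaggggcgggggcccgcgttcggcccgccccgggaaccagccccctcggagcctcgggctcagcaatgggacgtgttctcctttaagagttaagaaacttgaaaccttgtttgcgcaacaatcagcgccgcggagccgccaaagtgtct
Grem1, chr2:113758649-113758898, minus strand: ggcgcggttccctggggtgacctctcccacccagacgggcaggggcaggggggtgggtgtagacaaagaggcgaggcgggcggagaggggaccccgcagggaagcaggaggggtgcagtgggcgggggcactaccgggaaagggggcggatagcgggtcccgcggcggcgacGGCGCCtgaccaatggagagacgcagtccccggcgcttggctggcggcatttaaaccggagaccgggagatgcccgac
The promoter table held 7 of the 10 members. GGCGCC stood in 2 of these 7 windows, once in Id2, starting 231 bases before the gene start, and once in Grem1, starting 78 bases before it. Of all 32851 windows of the same length in that table, 9.59% held it. The palindrome GTCTAGAC, another Smad-binding word, stood in 0 of the 7 and in 0.167% of all. These matches describe letters in the windows and are no measure of binding.

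The arrays were close to each other over all genes, with a correlation of at least 0.99 between any pair. Pdgfra, the targeted gene, had log2 levels of 11.29 and 11.32 after pA-VMO, 11.31 and 11.29 after 5'ss-VMO, and 11.37 and 11.24 after Control VMO; its probe set does not separate the isoforms, so it checks neither reagent nor label. The control arrays differed from each other in these members: 8 of the 10 were higher on Control VMO array 2 than on array 1, with a median of 0.10, while 44.5% of all tested genes were. Precision was limited by the number of arrays: the smallest p of an exact permutation with 2 arrays a side is 0.333. In bulk RNA of this kind, fewer cells of a type and less RNA per cell cannot be told apart.

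**Figure D1:**
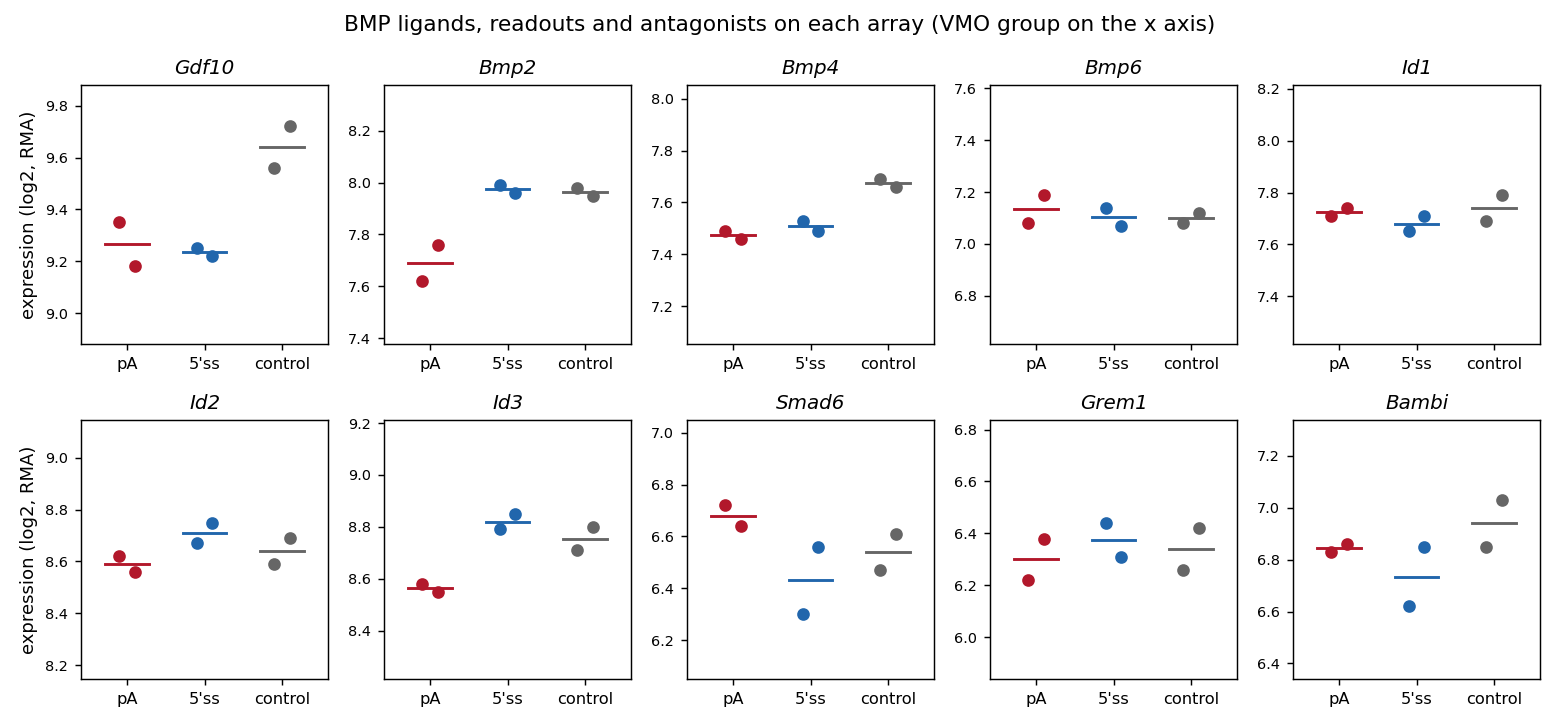
Expression (log2, RMA) of each member on the 6 arrays; points are arrays (pools of 4 mice), horizontal bars are group means, and every panel spans 1 log2 unit. Gdf10 and Bmp4 sit lower on all 4 reagent arrays than on both control arrays, and Bmp2 and Id3 sit lowest on the pA-VMO arrays. Both reagents are set against the same control arrays, and the share of all tested genes with either pattern was not counted.

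Gdf10 (probe set 10414025), a BMP-related ligand that in other settings acts through TGF-beta type receptors, had 9.35 and 9.18 on the pA-VMO arrays, 9.25 and 9.22 on the 5'ss-VMO arrays and 9.56 and 9.72 on the Control VMO arrays. Every reagent array lay below both control arrays, and the arrays of the 2 reagents overlapped. The difference from control was -0.37 ± 0.083 (SE, 2 arrays in each group) for pA-VMO, 1.29-fold lower, with a 95% interval of -0.56 to -0.18 (limma adjusted p = 0.228). With 5'ss-VMO it was -0.40 ± 0.083, 1.32-fold lower, with an interval of -0.59 to -0.21 (limma adjusted p = 0.0831). Both comparisons use the same control arrays, and the share of all tested genes below control with both reagents was not counted. With a prior variance that follows intensity, estimated robustly, 49 of all 14953 tested genes were called for pA-VMO and 265 for 5'ss-VMO. With genes below the 50th percentile left out, 181 of 9969 were called for 5'ss-VMO. Gdf10 is the member whose call depended on the fit: with that prior it passed for pA-VMO (limma adjusted p = 0.0444) and for 5'ss-VMO (limma adjusted p = 0.00891), and with that filter it passed with 5'ss-VMO (limma adjusted p = 0.0334). It missed the threshold in the other settings tried, with adjusted p values of up to 0.492 and 0.358. Between the reagents Gdf10 differed by 0.03, with an interval of -0.16 to 0.22.

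Bmp4 (probe set 10419261), a ligand of the type I receptors Bmpr1a and Bmpr1b, had 7.49 and 7.46 after pA-VMO, 7.53 and 7.49 after 5'ss-VMO and 7.69 and 7.66 after Control VMO. Its replicates were close (SD at most 0.0313 in any group), and all 4 reagent arrays lay below both control arrays. The difference from control was -0.20 ± 0.063 with pA-VMO (limma adjusted p = 0.315) and -0.16 ± 0.063 with 5'ss-VMO (limma adjusted p = 0.309). Its sign in both comparisons was also kept after the arrays were median centred or quantile normalized again. The other alternative settings could not turn it, since they leave the difference unchanged or drop a single array from groups that do not overlap.

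Bmp2 (probe set 10476395), the ligand closest to Bmp4, had 7.62 and 7.76 after pA-VMO, 7.99 and 7.96 after 5'ss-VMO and 7.98 and 7.95 after Control VMO. The pA-VMO arrays lay below all 4 others, while the 5'ss-VMO and control arrays overlapped. Its difference with pA-VMO was -0.27 ± 0.070 against control, 1.21-fold lower (limma adjusted p = 0.251), and -0.28 ± 0.070 against 5'ss-VMO, 1.21-fold lower (limma adjusted p = 0.124), and both comparisons use the same pA-VMO arrays. Against control, 5'ss-VMO gave a difference of 0.01 with an interval of -0.15 to 0.17. The adjusted p of Bmp2 over the settings tried ran from 0.102 to 0.547 for pA-VMO against control and from 0.059 to 0.437 between the reagents.

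Bmp6 (probe set 10404686), a ligand best known from the control of iron balance, had 7.08 and 7.19 after pA-VMO, 7.14 and 7.07 after 5'ss-VMO and 7.08 and 7.12 after Control VMO. All groups overlapped, and no difference was larger than 0.04. The intervals of its 3 differences lay between -0.15 and 0.19.

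Among the output genes Id3 lay below control on both pA-VMO arrays, Smad6 lay above it by a margin that depended on the control array, and Id1 and Id2 overlapped with control. Id1, Id2 and Id3 encode helix-loop-helix proteins that lack a DNA-binding region and hold back other factors of that class, and they are direct targets of BMP-activated Smads. Id1 (probe set 10477169) had 7.71 and 7.74 after pA-VMO, 7.65 and 7.71 after 5'ss-VMO and 7.69 and 7.79 after Control VMO. The 2 reagent groups each overlapped with control. Its difference from control was -0.01 with pA-VMO, with an interval of -0.17 to 0.14, and -0.06 with 5'ss-VMO, with an interval of -0.21 to 0.10.

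Id2 (probe set 10399691) had 8.62 and 8.56 after pA-VMO, 8.67 and 8.75 after 5'ss-VMO and 8.59 and 8.69 after Control VMO. The pA-VMO arrays lay below the 5'ss-VMO arrays, and both groups overlapped with control. Its largest difference was -0.12 ± 0.070, for pA-VMO against 5'ss-VMO (limma adjusted p = 0.421).

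Id3 (probe set 10509163) had 8.58 and 8.55 after pA-VMO, 8.79 and 8.85 after 5'ss-VMO and 8.71 and 8.80 after Control VMO. As for Bmp2, both pA-VMO arrays lay below all 4 others. The difference was -0.19 ± 0.066 against control (limma adjusted p = 0.354) and -0.26 ± 0.066 against 5'ss-VMO, 1.19-fold lower (limma adjusted p = 0.132). Its adjusted p between the reagents ran from 0.0537 to 0.341 over the settings tried.

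Smad6 (probe set 10594418), an inhibitory Smad that BMP signalling induces and that feeds back on the type I receptors, had 6.72 and 6.64 after pA-VMO, 6.30 and 6.56 after 5'ss-VMO and 6.47 and 6.61 after Control VMO. The pA-VMO arrays were the highest, and the 5'ss-VMO arrays were the farthest apart (SD 0.179). Smad6 differed by 0.25 ± 0.094 between pA-VMO and 5'ss-VMO, 1.19-fold higher (limma adjusted p = 0.247), and by 0.14 ± 0.094 between pA-VMO and control (limma adjusted p = 0.609). The difference from control was 0.07 without control replicate 1 and 0.21 without control replicate 2. The difference between the reagents was 0.12 without 5'ss-VMO replicate 1.

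Of the antagonists, Grem1 (probe set 10485948), a secreted protein that binds Bmp2 and Bmp4, had 6.22 and 6.38 after pA-VMO, 6.44 and 6.31 after 5'ss-VMO and 6.26 and 6.42 after Control VMO. All groups overlapped, and its differences ran from -0.07 to 0.03. Bambi (probe set 10453604), a membrane protein that resembles a type I receptor without the kinase, had 6.83 and 6.86 after pA-VMO, 6.62 and 6.85 after 5'ss-VMO and 6.85 and 7.03 after Control VMO. The pA-VMO and control arrays overlapped. The difference of 5'ss-VMO from control was -0.20 ± 0.091 (limma adjusted p = 0.364), with 5'ss-VMO array 2 and control array 1 apart by less than the rounding shown, and it was -0.09 without 5'ss-VMO replicate 1.

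**Figure D2:**
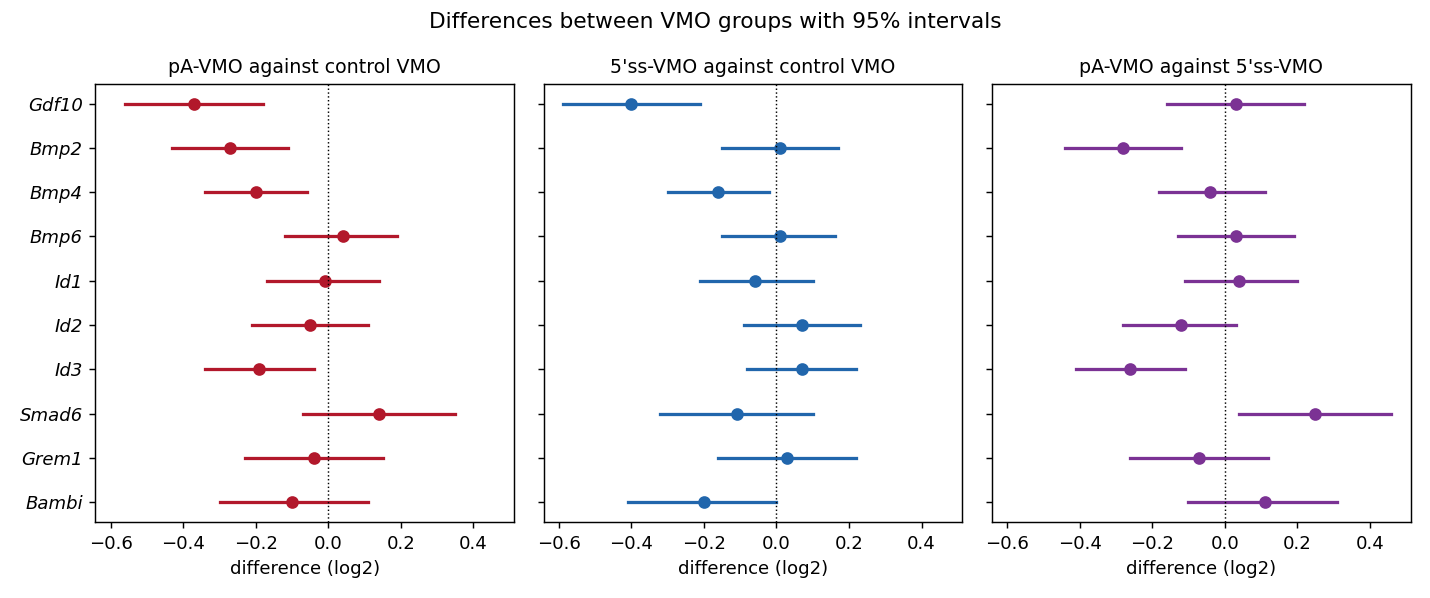
Difference between groups (log2, x axis) for each member, with 95% intervals from limma over all genes. The interval leaves out 0 for Gdf10 and Bmp4 against control with both reagents, for Bmp2 and Id3 in both comparisons of pA-VMO, and for Smad6 between the reagents; these intervals are not adjusted for the number of genes.

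Counted together, 0 of 10 members were called with pA-VMO against control, where 0.00669% of all tested genes were called. By unadjusted p under 0.05, 4 of 10 passed (Gdf10, Bmp2, Bmp4 and Id3), against 11.4% of all genes. The members were chosen with earlier results of these data known, so neither this share nor those below test the set. These 4 members had both pA-VMO arrays below both control arrays, which 18.8% of all genes had, and Smad6 had both above, which 24.1% had. The median difference of the 10 members was -0.07, beside 0.013 over all genes tested, and it was -0.15 without control replicate 1 and -0.01 without control replicate 2.

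With 5'ss-VMO against control, 0 of 10 members were called, where 0.582% of all tested genes were called. By unadjusted p under 0.05, 2 of 10 passed (Gdf10 and Bmp4), against 13.9% of all genes. Gdf10, Bmp4 and Bambi had both 5'ss-VMO arrays below both control arrays, which 21.5% of all genes had, and 0 members had both above, which 23.2% had. The median was -0.02, beside 0.001 over all genes, and -0.08 without control replicate 1.

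Between pA-VMO and 5'ss-VMO, 0 of 10 members were called, where 0.0602% of all tested genes were called. By unadjusted p under 0.05, 3 of 10 passed (Bmp2 and Id3 lower and Smad6 higher with pA-VMO), against 15.9% of all genes. Both pA-VMO arrays lay below both 5'ss-VMO arrays for Bmp2, Bmp4, Id2 and Id3, which 23.7% of all genes did, and above for Id1 and Smad6, which 25.5% did. For Bmp4 and Id1 the nearest arrays of the 2 groups lay closer than the rounding shown, and the sign of the Bmp4 difference between the reagents turned when the values were quantile normalized again. The median was 0, beside 0.004 over all genes.

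The rest of the pathway was read from 5 lists of 56 genes, of which 54 had a probe set of their own and 47 were tested. None of the 47 was called in any comparison. By unadjusted p under 0.05 the count was 6 with pA-VMO against control, 7 with 5'ss-VMO against control and 8 between the reagents. These counts are 12.8%, 14.9% and 17% of the 47, near the 11.4%, 13.9% and 15.9% of all tested genes. Their median differences were -0.01, -0.03 and 0.02.

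Among the other ligands, Bmp5 had 10.14 and 10.09 after pA-VMO, 10.09 and 10.07 after 5'ss-VMO and 10.35 and 10.23 after Control VMO. Like Gdf10 and Bmp4, it lay lower on all 4 reagent arrays than on the control arrays, with differences of -0.17 (pA-VMO) and -0.21 (5'ss-VMO) (limma adjusted p = 0.397 and 0.237). The comparisons share the control arrays, and how many of all tested genes lay lower with both reagents was not counted. Taken singly, 18.8% of all tested genes had both pA-VMO arrays below both control arrays, and 21.5% had both 5'ss-VMO arrays below them. Bmp8a lay 0.25 above control with pA-VMO (limma adjusted p = 0.337). All 8 tested ligands of this list had a positive difference between pA-VMO and 5'ss-VMO, with a median of 0.16. Most of the 8 were dim: with genes below the 50th percentile left out, 2 remained, both positive. Gdf5, at a mean of 5.29, lay near the filter floor of 5.209. The smallest adjusted p was 0.229 for Bmp3 (limma), and 7 of the 8 were positive after either rescaling of the arrays. Over all tested genes 48.5% had a negative difference in that comparison. Among the member ligands, Bmp2 and Bmp4 lay at -0.28 and -0.04, and Gdf10 and Bmp6 each at 0.03.

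The receptors had no call. The type I receptor Bmpr1a and the type II receptor Bmpr2 differed by at most 0.05 in any comparison. Bmpr1b, the other BMP type I receptor of this class, had 6.86 and 6.88 after pA-VMO, 6.94 and 7.10 after 5'ss-VMO and 6.83 and 6.55 after Control VMO. Its difference was 0.33 ± 0.097 with 5'ss-VMO against control (limma adjusted p = 0.21), on control arrays that lay far apart. Rgmb, a membrane-bound BMP co-receptor, lay at -0.21 in the same comparison (limma adjusted p = 0.268), and the co-receptor Hjv at -0.20 with pA-VMO against control (limma adjusted p = 0.432).

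Of the Smads that carry the signal, Smad1 lay at -0.14 with pA-VMO against control and at -0.19 against 5'ss-VMO (limma adjusted p = 0.524 and 0.256). Smad9 lay at -0.23 with 5'ss-VMO against control (limma adjusted p = 0.24). Smad4 and Smad5 differed by at most 0.04 in any comparison, and the inhibitory Smad7 lay at -0.13 with pA-VMO against control (limma adjusted p = 0.549).

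Among extracellular modulators, Nbl1, a secreted BMP antagonist of the same family as Grem1, had 8.75 and 8.73 after pA-VMO, 8.85 and 8.81 after 5'ss-VMO and 9.13 and 9.05 after Control VMO. It lay below control on all 4 reagent arrays, a pattern whose share over all tested genes was not counted. Its differences were -0.35 ± 0.065 for pA-VMO (limma adjusted p = 0.204) and -0.26 ± 0.065 for 5'ss-VMO (limma adjusted p = 0.148). Nbl1 passed in both with the intensity-dependent robust prior (limma adjusted p = 0.0253 and 0.0377), which called 49 and 265 of all 14953 tested genes. Bmper, which binds BMPs outside the cell, lay at -0.24 with 5'ss-VMO (limma adjusted p = 0.173, and 0.0416 with that prior). The chordin-like antagonist Chrdl2 lay 0.28 higher with pA-VMO than with 5'ss-VMO and Chrdl1 0.33 higher (limma adjusted p = 0.163 and 0.286). Chrdl2 lay near the filter floor of 5.209, at 5.31 and 5.14 with 5'ss-VMO. For Chrdl1 the 5'ss-VMO arrays lay far apart, at 7.85 and 8.30. The classical antagonists Nog and Chrd differed by at most 0.09.

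The other genes that respond to BMP signals also lacked a call. Id4 lay at -0.17 with 5'ss-VMO against control (limma adjusted p = 0.433). Msx1, a homeobox gene induced by BMPs in the embryo, lay at 0.15 (pA-VMO) and 0.13 (5'ss-VMO) against control (limma adjusted p = 0.434 and 0.424). Atoh8 lay 0.15 higher with pA-VMO than with 5'ss-VMO, and Hey1 lay at -0.20 in that comparison with overlapping arrays (limma adjusted p = 0.293 and 0.503).

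**Figure D3:**
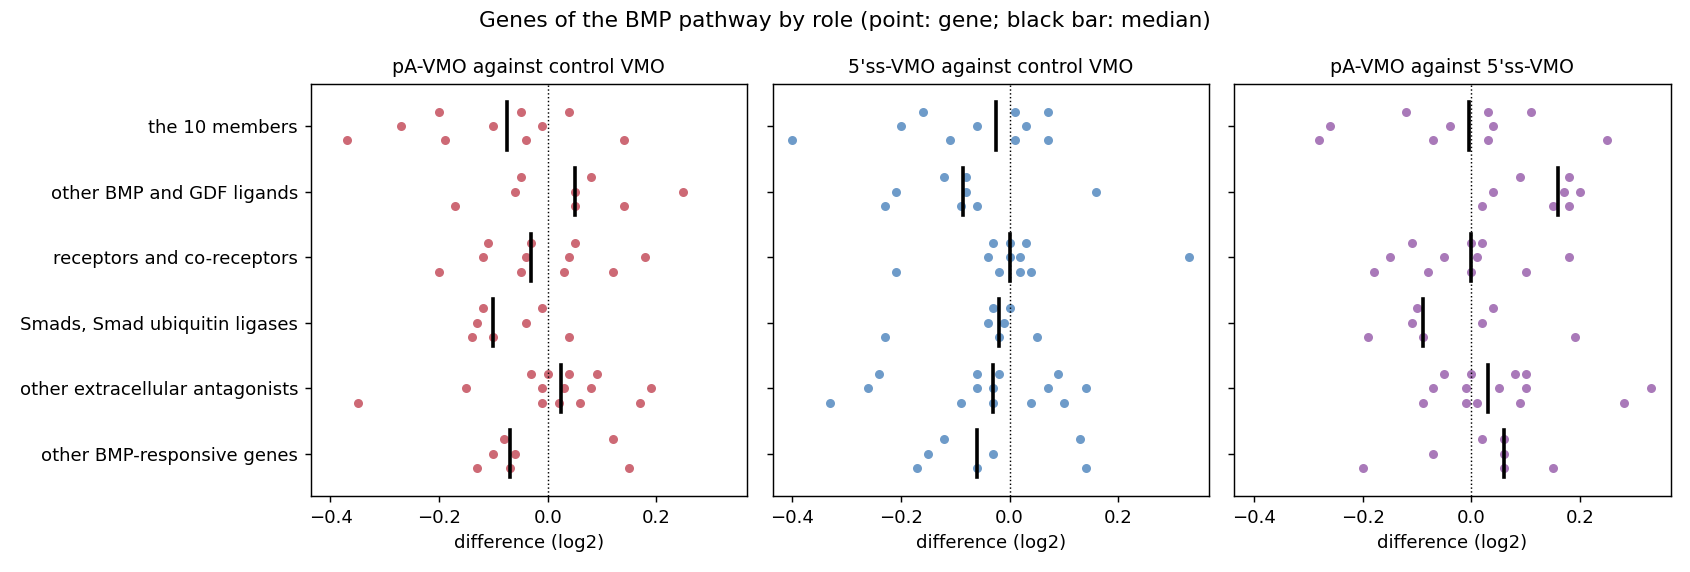
Differences (log2, x axis) of the 10 members and of the 47 other tested pathway genes, by role; each point is a gene and black bars are medians. Points of every role lie on both sides of 0 except the other ligands between the reagents, where all 8 are above 0 as deposited and 7 after either rescaling. Of these 8 ligands, 2 remain with the filter at the 50th percentile.

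The preparations carried FAP markers at high levels and some signal of other cells. Of 10 FAP markers 9 had a probe set of their own; the list averaged 10.81 to 10.86 over the pA-VMO arrays, 10.82 to 10.83 with 5'ss-VMO and 10.93 to 10.98 with Control VMO. Dpp4, a surface peptidase of a FAP subset, was the 1 FAP marker called, at -0.52 with 5'ss-VMO against control (limma adjusted p = 0.0318), and it lay at -0.45 with pA-VMO (limma adjusted p = 0.204). The FAP list was mixed: 3 of 9 markers had a positive difference from control with pA-VMO and 2 of 9 with 5'ss-VMO, and the median was -0.07 in both. Cd34 lay at -0.25 (pA-VMO) and -0.21 (5'ss-VMO) and Lum at -0.19 and -0.33, whereas Col1a1 lay at 0.02 and 0.04, Thy1 at 0.08 and 0.06 and Col3a1 at -0.02 and -0.03. The mean of the list was lower on the 4 reagent arrays than on both control arrays.

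The means of several lists of other cells were higher on the reagent arrays, though not for every marker. The 10 endothelial markers averaged 6.07 to 6.10 after pA-VMO, 6.15 to 6.18 after 5'ss-VMO and 5.87 to 6.03 after Control VMO, and Cdh5 rose by 0.70 with 5'ss-VMO against control (limma adjusted p = 0.00551), the 1 of 9 tested that was called. Of these 9, 7 had a positive difference from control after pA-VMO and 6 after 5'ss-VMO. Tek lay at -0.20 (pA-VMO) and -0.19 (5'ss-VMO), and Vwf at 0.15 and -0.16 in the same order. The 10 macrophage markers averaged 7.01 with pA-VMO on both arrays, 7.10 to 7.17 with 5'ss-VMO and 6.75 to 6.95 with Control VMO, and 2 of 10, C1qc and C1qa, rose by 0.50 and 0.39 with 5'ss-VMO (limma adjusted p = 0.0249 and 0.0472). Mcam of the pericyte and smooth muscle list rose by 0.42 and Chrna1 of the myoblast list by 0.62 with 5'ss-VMO (limma adjusted p = 0.0443 and 0.0283), 1 of 8 tested markers in each list. The 8 pericyte and smooth muscle markers averaged 7.44 to 7.50 after pA-VMO, 7.48 to 7.51 after 5'ss-VMO and 7.30 to 7.34 after Control VMO. Of these 8, 6 had a positive difference from control after pA-VMO and 7 after 5'ss-VMO, and Kcnj8 lay at -0.07 and -0.10. The 8 myoblast markers averaged 6.45 to 6.50 after pA-VMO, 6.74 to 6.86 after 5'ss-VMO and 6.39 to 6.55 after Control VMO. The myoblast list was thus lower with pA-VMO than with 5'ss-VMO. None of the markers of muscle fibres, tendon, Schwann cells, lymphocytes or neutrophils was called, and their smallest adjusted p values over the 3 comparisons (limma) were 0.162 for Acta1, 0.329 for Tnmd, 0.255 for S100b, 0.148 for Cd3e and 0.464 for S100a9. The part of these cell lists in the levels of the BMP members was not tested.

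**Figure D4:**
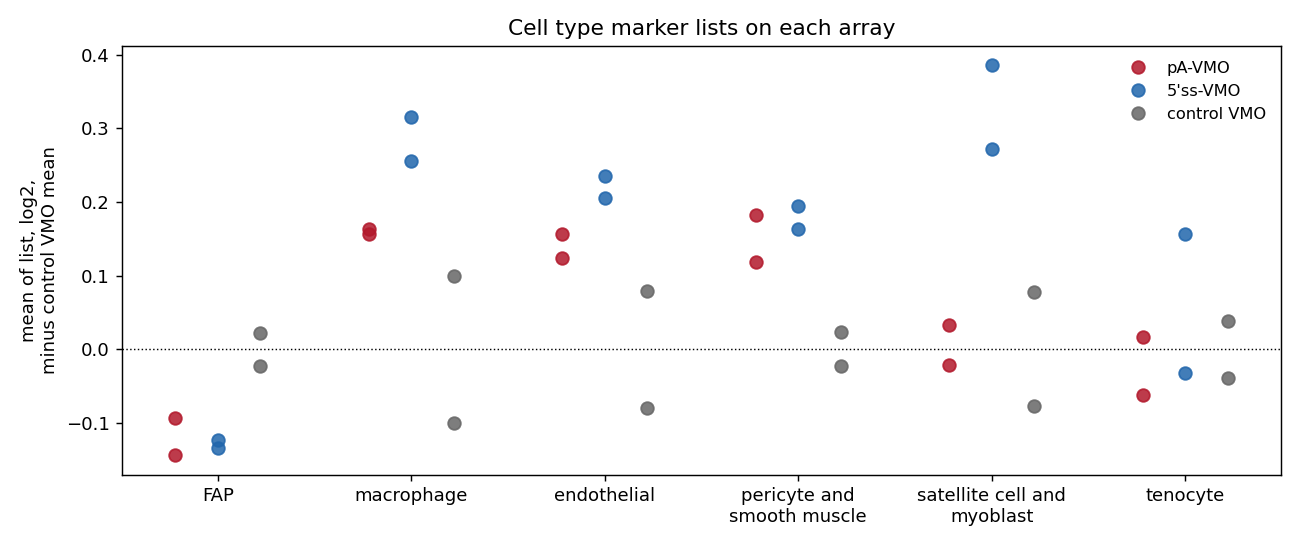
Mean log2 level of each marker list on each array, minus the mean of the 2 Control VMO arrays (y axis); points are arrays. The mean of the FAP list is lower on all 4 reagent arrays, and those of the macrophage, endothelial and pericyte lists are higher on them than on both control arrays.

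The genes with the pattern closest to the 3 members with the widest range of group means (Gdf10, Bmp2 and Id3) were read as a description, by the root mean square difference of log2 values centred on each gene's own mean over the 6 arrays. For Gdf10 these were Olfml1 (0.0444), Fap (0.0517) and Acss3 (0.0565), where the median gene lay at 0.212. Fap, the fibroblast activation protein, had 9.59 and 9.39 after pA-VMO, 9.59 and 9.43 after 5'ss-VMO and 9.86 and 9.96 after Control VMO. Its lower level on all 4 reagent arrays follows from its choice as a gene close to Gdf10 and adds nothing to that pattern. For Bmp2 they were Traf6 (0.0126), Gm4832 (0.031) and Commd6 (0.0338), with a median gene at 0.159. For Id3 they were Mapkapk5 (0.0228), Maob (0.0233) and the integrin gene Itga4 (0.0245), with a median gene at 0.14. With 6 arrays and 14953 genes, close neighbours of any pattern are many.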

How the data were processed

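Affymetrix Mouse Gene 1.0 ST arrays were hybridised from 100 ng of RNA for 6 samples. Per the submitters' processing notes, the deposited log2 values were made by the authors with Affymetrix Expression Console and RMA; software version, settings and genome build: not given in the sources used here. Since RMA makes arrays alike, a change in total RNA cannot be seen. Probe sets with 1 symbol in the platform annotation (21789 of 35556) were named; for the 999 of 19938 genes with several, the one with the highest mean was used. A floor at the 25th percentile of gene means (log2 5.209) was applied. limma 3.58.1 (R 4.3.3) fitted all 6 arrays together, with 3 residual and 6.06 prior degrees of freedom, no block and two-sided tests; the procedure was tested on simulated data. Same-numbered arrays of different groups had deviations from their group means that correlated at -0.102, -0.0345 and 0.0207, so numbers were not used as pairs.

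The members, lists and settings were chosen with earlier results of these data known. Other genes were named from the smallest p of each list per comparison (2 for pathway lists, 1 for marker lists), every call, and the 3 nearest in pattern to the 3 members with the widest range of group means; Bmpr1a, Bmpr2, Smad4, Smad5, Nog and Chrd were added after their values were seen. Alternatives changed the filter, the probe set rule, the scaling, the prior, the replicate block, the groups in the fit, or left out each array.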

Additional observations from a re-analysis of the deposited data

How the results depend on the processing

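The 10 members kept a count of 0 called in most settings. With an intensity trend and a robust prior 1 member passed with pA-VMO against control and 1 with 5'ss-VMO against control, and with a filter at the 50th percentile 1 passed with 5'ss-VMO against control; all were Gdf10, at -0.371 (pA-VMO) and -0.402 (5'ss-VMO). With that prior 1 and 2 of the other 47 pathway genes passed against control with pA-VMO and 5'ss-VMO, where 49 and 265 of all 14953 tested genes did. The median difference of the members with 5'ss-VMO against control was -0.0663 when the deposited values were quantile normalized again and ran from -0.0776 to -0.0035 over fits without 1 array; with pA-VMO against control it ran from -0.149 to -0.00509. The cause was not tested. Against control, Gdf10 and Bmp4 with both reagents and Bmp2 and Id3 with pA-VMO kept a negative sign after either rescaling of the arrays. The other alternatives could not turn these signs, since they leave the difference unchanged or drop a single array from groups that do not overlap.

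Over all 14953 tested genes, 1 was called with pA-VMO against control, 87 with 5'ss-VMO against control and 9 between the reagents. The counts were 49, 265 and 186 with the intensity trend and robust prior, and 0, 24 and 3 of 19938 genes with no filter. They were 181 and 102 of 9969 genes for the last 2 comparisons with the filter at the 50th percentile. Between the reagents the count was 102 with arrays centred on their median, 5 after quantile normalization and 15 with the mean of all probe sets of a gene. Without 1 array the counts ran from 0 to 2, from 8 to 76 and from 1 to 18. With the replicate block the counts were 1, 90 and 23, with 0 of the 10 members called in each comparison; with the pA-VMO numbers crossed, an alternative chosen after seeing the data, 5 genes and 0 members were called with pA-VMO against control. The number of arrays limits what can be seen: the median standard error of a difference was 0.074.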
